A study of Mus musculus with 10 samples.

Results

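Livers from mice labelled LTKO were compared with wild-type livers of mice fed a high-fat diet (HFD), after both had received a control virus. The comparison rests on 5 of the study's 10 arrays, chosen by their titles, with 2 LTKO GFP livers and 3 HFD GFP livers. All 22180 genes whose transcript cluster on the array maps to a single gene symbol were followed. The livers came from fasted males kept on a light-dark cycle. About 2 weeks earlier they had been given an adeno-associated virus in which the TBG promoter, which is active in hepatocytes, drives green fluorescent protein (GFP). The other 5 arrays held the same genotypes with a virus for FST288, an isoform of follistatin, in 3 HFD and 2 LTKO livers. LTKO is not explained in the labels. As background, it is known as a liver triple knockout of the insulin receptor substrates Irs1 and Irs2 and the transcription factor Foxo1. The labels give no diet for the LTKO mice, no strain for either group and no driver of the deletion. Genotype, diet and strain can therefore not be told apart in these samples. Nothing in the labels states that the samples come from separate animals, and the p-values then cover only the spread among these samples, which may be technical.

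As background, the insulin receptor signals through IRS1 and IRS2 to the kinase AKT, which keeps FoxO factors out of the nucleus. FoxO1 raises genes of glucose production and of fasting, while insulin acting through IRS proteins raises SREBP-1c and with it the genes that make fatty acids. In a fasted liver, fatty acids are oxidised in mitochondria and peroxisomes under the nuclear receptor PPARα, and ketones and the hormone FGF21 are released. Many of these genes also follow the circadian clock and feeding time.

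Values are on the log2 scale, so a change of 1 is a doubling, and each array was 1 liver sample. Pairs of HFD GFP arrays correlated at 0.991 to 0.992 over all genes, the LTKO GFP arrays at 0.990, and arrays of different groups at 0.974 to 0.978. The median SD of a gene was 0.138 among the HFD GFP arrays and 0.117 between the LTKO GFP arrays. The 9 hepatocyte markers had medians of 12.17 to 12.41 in the HFD GFP arrays and 11.78 and 11.89 in the LTKO GFP arrays, with 3 of the 9 called lower in LTKO and 1 higher. The 18 acinar pancreas markers had medians of 2.24 to 2.49 in the 5 GFP arrays, below the median gene at 3.12. In HFD FST288 replicates 2 and 3 those acinar medians stood at 7.10 and 5.93, so counts and most values from the FST288 arrays are given with and without these arrays. LTKO FST288 replicate 2 had the highest summed level of the Kupffer cell and macrophage markers, 11.3 on the log2 scale against 9.80 to 10.2 in the other 9 arrays.

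In the LTKO GFP livers, genes of fatty acid and cholesterol synthesis fell together, genes of fatty acid oxidation rose together, and most of the circadian clock genes were shifted. A gene was called when its adjusted p was under 0.05 (limma on all 10 arrays, Benjamini-Hochberg over 22180 genes). By that measure 2902 genes, 13.1% of those tested, were called, with 1483 higher in LTKO (6.69%) and 1419 lower (6.4%). Level mattered: 23.3% of genes with a group mean at or above the median gene were called, and 1.79% of the others. A list of well-expressed genes is therefore to be read against the 23.3% as well. Of these, 546 changed by at least 1 on the log2 scale, 257 upward and 289 downward. Leaving out LTKO GFP replicate 1 reduced the calls to 1870. The split was 1261 higher and 1596 lower with each array centred on its median, and 1522 and 1633 over all transcript clusters. The median change over all genes was 0.01. In bulk liver, fewer cells of a type and less RNA per cell cannot be told apart.

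**Figure D1:**
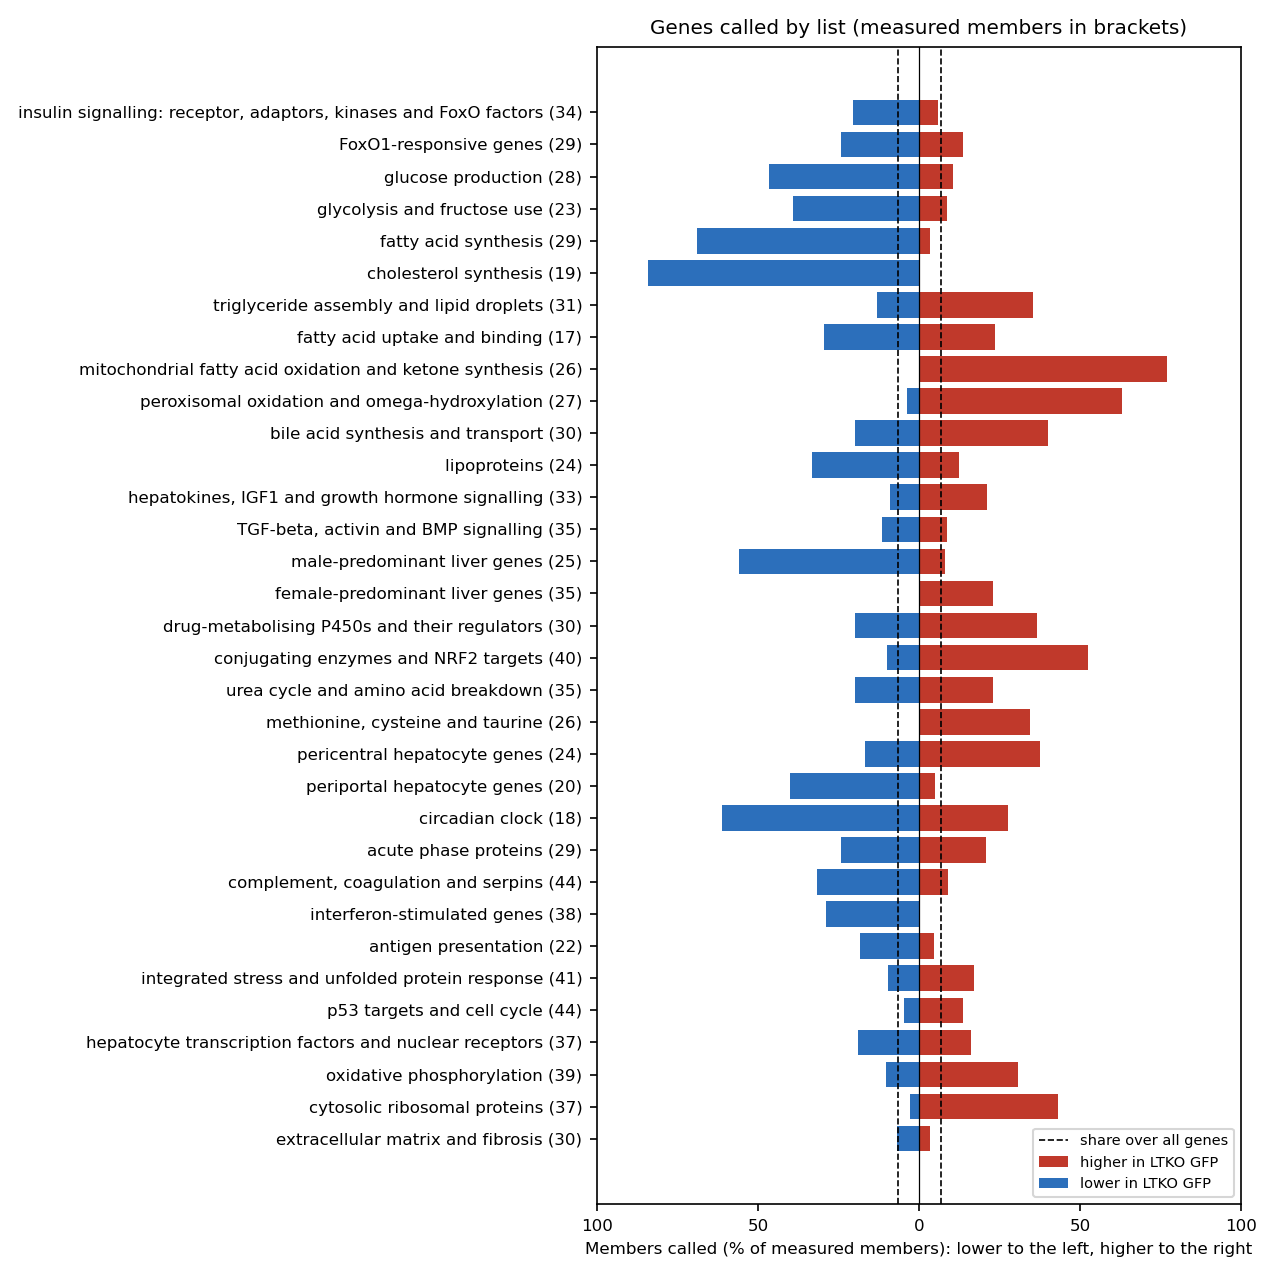
Counts of called genes in each gene list, as the percentage of its measured members higher in LTKO GFP (right) and lower (left), with dashed lines at the 6.69% and 6.4% of all genes. Cholesterol and fatty acid synthesis reach farthest to the left, and mitochondrial and peroxisomal oxidation farthest to the right.

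The genes that the name LTKO refers to were lower in the LTKO livers. Irs1 read 4.82, 5.14 and 4.77 in the HFD GFP livers and 3.19 and 3.10 in the LTKO GFP livers, a fall by 1.77 on the log2 scale (SE 0.15, limma adjusted p = 5.21e-06, n = 3 and 2). Foxo1 read 6.60, 6.83 and 6.74 against 4.93 and 5.15, a fall by 1.68 (SE 0.13, limma adjusted p = 1.49e-06). The groups did not overlap for either gene, which held for 40.3% of all genes. The changes were -0.89 and -0.90 when all clusters of the gene were averaged in place of its brightest cluster. Irs2 read 4.05, 4.28 and 4.12 against 2.52 and 3.36 (change -1.21, SE 0.24, limma adjusted p = 0.00409), and was at -0.79 with an adjusted p of 0.0713 without LTKO GFP replicate 1. A cluster's probes need not lie in a deleted exon, so these values check the labels only in part. Among the 34 insulin signalling genes measured, 2 rose and 7 fell (26.5%), against 13.1% of all genes called. The 7 include Irs1, Irs2 and Foxo1, the genes that the name refers to, so this share is raised by the targets themselves. Of genes with a group mean at or above the median gene, 23.3% were called. Foxo3, a FoxO factor close to Foxo1, read 5.54, 5.57 and 5.78 against 3.88 and 4.39, a fall by 1.5 on the log2 scale. Sesn3, a sestrin and FoxO target, fell by 1.58 and Pik3r1, the regulatory subunit of PI3-kinase, by 0.81 on that scale. The insulin receptor Insr (-0.18, adjusted p = 0.308) and the virus cargo gene Fst of the other arrays (0.08, adjusted p = 0.878) overlapped between the groups.

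Genes known to respond to FoxO1 went in both directions: 4 of 29 rose and 7 fell (37.9%). Over all genes 13.1% were called, and 23.3% of those with a group mean at or above the median gene. Irs2, to which the name LTKO refers, is on this list and among the 7 falls. In this list, 3 of the rises and 2 of the falls were called in every fit that left out 1 array. The number lower ranged from 3 to 8 over the other settings. Pdk4, the kinase that shuts off pyruvate dehydrogenase in fasting, read 4.20, 4.62 and 4.46 in HFD and 7.91 and 8.28 in LTKO. That is a 12.7-fold rise (change 3.67, SE 0.16, limma adjusted p = 6.48e-09). Cdkn1a, the cell cycle inhibitor p21, read 4.09, 5.09 and 4.35 against 6.80 and 7.55, a 6.31-fold rise. Txnip, which binds thioredoxin and restrains glucose uptake, read 7.13, 6.49 and 6.92 against 8.11 and 8.48 (change 1.45, limma adjusted p = 8.18e-05). Igfbp1, a secreted IGF-binding protein and textbook FoxO1 target, read 8.29, 8.06 and 8.39 against 7.99 and 9.27. Its groups overlapped (change 0.38, adjusted p = 0.421), and the 2 LTKO livers disagreed: without replicate 1 the change was 1.02 (adjusted p = 0.00307) and without replicate 2 it was -0.26. The promoters of Pdk4, Sesn3 and Txnip, the called members with the smallest p among those with a single start in the RefSeq table, are shown because they differ in whether the FoxO-type letters are there. Each is a window of 300 bases around the annotated start in GRCm38.p6, mostly before it, with the core forkhead motif GTAAACA in capitals. Pdk4 lies at chr6:5496229-5496528 on the minus strand, Sesn3 at chr9:14276051-14276350 on the plus strand and Txnip at chr3:96557707-96558006 on the plus strand.
Pdk4: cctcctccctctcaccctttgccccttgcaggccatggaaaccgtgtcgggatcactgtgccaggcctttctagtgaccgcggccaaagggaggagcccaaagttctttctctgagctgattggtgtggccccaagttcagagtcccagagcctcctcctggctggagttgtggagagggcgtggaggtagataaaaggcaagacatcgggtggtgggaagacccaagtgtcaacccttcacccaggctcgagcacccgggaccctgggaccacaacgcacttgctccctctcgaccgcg
Sesn3: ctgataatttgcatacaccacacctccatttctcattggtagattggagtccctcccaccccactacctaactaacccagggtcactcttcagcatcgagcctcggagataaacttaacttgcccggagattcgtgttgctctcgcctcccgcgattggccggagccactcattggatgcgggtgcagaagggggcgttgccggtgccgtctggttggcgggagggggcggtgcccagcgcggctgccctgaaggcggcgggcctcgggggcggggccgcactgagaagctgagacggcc
Txnip: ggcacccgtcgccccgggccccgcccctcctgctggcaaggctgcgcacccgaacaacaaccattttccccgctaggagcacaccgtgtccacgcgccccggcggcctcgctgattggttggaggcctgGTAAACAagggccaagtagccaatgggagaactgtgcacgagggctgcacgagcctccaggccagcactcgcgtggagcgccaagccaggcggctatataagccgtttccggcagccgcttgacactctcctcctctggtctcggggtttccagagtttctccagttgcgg
GTAAACA was found in the Txnip window with its leading base at -121 from the start. Of 16990 promoters of measured genes, 3.54% held GTAAACA on either strand. The letters GTTTTG, part of insulin response elements, were in 15.1%, the sterol element TCACNCCAC was in 1.43%, and the E-box CACGTG, its own reverse complement, was in 9.19%. None of these letters was in the Pdk4 and Sesn3 windows, or in the windows of Cdkn1a, which has 2 listed starts and is not shown. GTAAACA stood in 3 of 22 FoxO1-responsive promoters (13.6%). It was in 0 of 7 promoters of members called lower and in 1 of 4 of those called higher.

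Genes of glucose production fell more often than they rose, with 13 of 28 lower and 3 higher. Pygl, liver glycogen phosphorylase, read 9.15, 9.19 and 9.09 against 7.62 and 7.71, a fall by 1.48 on the log2 scale (limma adjusted p = 1.09e-07). Gbe1, the glycogen branching enzyme, fell by 1.66, Ppp1r3b, a glycogen-targeting phosphatase subunit, by 1.54, and Slc37a4, the glucose-6-phosphate transporter, by 1.39 on that scale. Ugp2, which makes UDP-glucose, was at -1.18 and Gys2, liver glycogen synthase, at -0.94. Ppp1r3c, another glycogen-targeting subunit, went the other way, from 5.52, 5.78 and 5.57 to 8.19 and 8.45, a 6.48-fold rise. The glucagon receptor Gcgr rose by 0.65. G6pc, whose enzyme releases free glucose, read 10.21, 10.13 and 10.27 against 9.26 and 9.85 (change -0.65, limma adjusted p = 0.0151). Its call was lost without LTKO GFP replicate 1 (-0.35, adjusted p = 0.214) and without HFD GFP replicate 3 (adjusted p = 0.0537). Pck1, the entry enzyme of gluconeogenesis, was at -0.52 (adjusted p = 0.0072) and lost its call without LTKO GFP replicate 1 (-0.40, 0.096). Ppargc1a, the coactivator PGC-1α, was at -0.70 (0.00698) and lost its call without LTKO GFP replicate 2 (-0.56, 0.0808). Tat, tyrosine aminotransferase, fell by 0.72 on the log2 scale and Cebpb, a transcription factor, by 0.80.

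Glucose uptake and sugar breakdown were also lower, with 9 of 23 members down and 2 up. Slc2a2, the hepatocyte glucose transporter GLUT2, read 10.70, 10.64 and 10.68 against 9.0 and 9.25, a fall by 1.55 on the log2 scale (SE 0.08, limma adjusted p = 2.26e-08). Pklr, liver pyruvate kinase, read 9.56, 9.70 and 9.84 against 6.35 and 6.99, 8.15-fold lower. The fructose enzymes Khk and Tkfc fell by 1.01 and 1.07, and Pfkfb3, which makes an activator of glycolysis, by 1.31. Gapdh was at -0.43 and Pdk1 at -0.90. The rises were Ldha, lactate dehydrogenase, at 0.64 and Gpd1, glycerol-3-phosphate dehydrogenase, at 0.73, or 0.42 with its clusters averaged.

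Fatty acid synthesis was among the pathways with most calls: 20 of 29 measured members were lower and 1 was higher, with a median change of -1.07. Of the 20, 17 were called in every fit that left out 1 array. Srebf1, which encodes SREBP-1, read 7.14, 7.70 and 7.51 in HFD and 5.64 and 5.81 in LTKO, a fall by 1.72 on the log2 scale (SE 0.16, limma adjusted p = 6.79e-06). Fasn, fatty acid synthase, read 8.69, 9.41 and 8.99 against 6.16 and 6.50, 6.5-fold lower (limma adjusted p = 1.05e-06). In both genes every LTKO liver lay below every HFD liver, while the groups did not overlap, in either direction, for 40.3% of all genes. Thrsp, a lipogenic nuclear protein, had the largest fall of the list, from 10.82, 11.02 and 10.94 to 6.13 and 5.99, or 29.2-fold. The enzymes that supply and carboxylate acetyl-CoA moved alike: Acly was at -2.50, Acss2 at -2.50, Acaca at -1.68 and Acacb at -2.82. The elongase Elovl6 was at -2.80, the desaturase Scd1 at -1.95 (11.84, 12.00 and 11.92 against 9.99 and 9.94) and the NADPH source Me1 at -1.37. Aacs, which activates acetoacetate, was at -1.97. Insig2, which holds SREBP in the endoplasmic reticulum, was the called member that rose, from 7.14, 7.15 and 7.20 to 8.54 and 8.66 (change 1.43, limma adjusted p = 1.05e-06), while its relative Insig1 fell by 1.53 on the log2 scale. Pnpla3, a lipid droplet acyltransferase and lipase, was at -0.29 (adjusted p = 0.367).

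**Figure D2:**
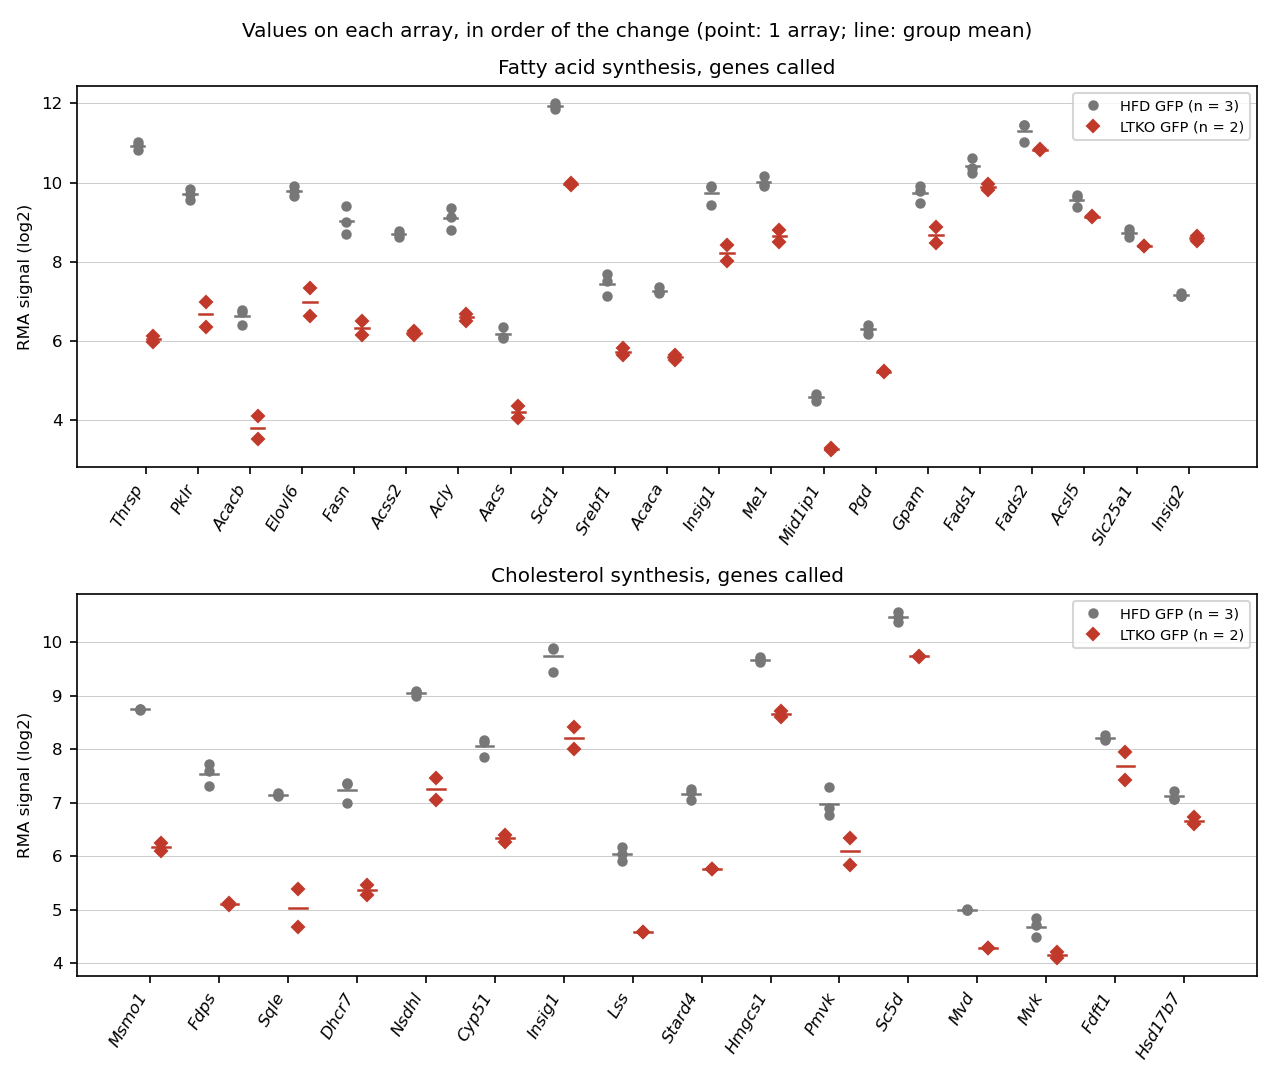
Log2 level in each GFP array for the called genes of fatty acid and cholesterol synthesis, HFD and LTKO livers as separate points. Members not called are not drawn, so the gap between the groups follows in part from that choice. The LTKO points lie below the HFD points, by 2.70 for Fasn and 2.57 for Msmo1 as differences of means, and Insig2 is the gene that lies above.

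Cholesterol synthesis was lower as well, with 16 of 19 measured members down, none up and a median change of -1.02. In all, 13 of the 16 were called in every fit that left out 1 array. Msmo1, a sterol methyl oxidase, read 8.75, 8.76 and 8.73 against 6.26 and 6.11, 5.92-fold lower (limma adjusted p = 2.88e-08). Fdps, which makes farnesyl diphosphate, fell by 2.44 on the log2 scale, Sqle, squalene epoxidase, by 2.12, Dhcr7 by 1.86, Nsdhl by 1.79 and Cyp51 by 1.72. Hmgcs1, at the entry of the pathway, read 9.73, 9.63 and 9.68 against 8.60 and 8.72, a fall by 1.02. Stard4, a sterol carrier, was at -1.40 and Lss, lanosterol synthase, at -1.46.

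Of 31 genes for triglyceride assembly and lipid droplets, 11 rose and 4 fell. Lpin1, a phosphatidate phosphatase and coactivator, fell from 9.06, 9.26 and 9.28 to 4.63 and 5.10, or 20.1-fold (limma adjusted p = 2.21e-09). The acyltransferase Gpam fell by 1.04 and Lpin2 by 0.79 on the log2 scale (change -1.60 with the clusters of Lpin2 averaged). Of the lipid droplet genes, G0s2, an inhibitor of adipose triglyceride lipase, rose by 2.33, Plin5 by 1.59, Plin2 by 1.02 and Fitm2 by 0.90. Among enzymes of assembly and lipolysis, Gpat3 rose by 2.21, Agpat2 by 0.91, Gpat4 by 0.78, Ces1d by 1.09 and Mgll by 0.69. Averaging the clusters gave 1.22 for G0s2 and 1.05 for Gpat3. Cidec (0.07, adjusted p = 0.84) and Mogat1 (0.02, 0.961) overlapped between the groups. Pparg, a driver of fat storage, was at -0.55 (adjusted p = 0.109), and Mttp, which loads triglyceride onto VLDL, was at -0.04 (0.883). Among 17 uptake and binding genes, 4 rose and 5 fell. Fabp5 and Acsl4 fell by 1.46 and 0.85 on the log2 scale. Cd36, a fatty acid transporter, read 6.66, 6.65 and 6.53 against 5.87 and 6.05 (change -0.65, limma adjusted p = 0.00566), with -0.56 and an adjusted p of 0.0656 without LTKO GFP replicate 1. Fabp2 was at -0.96, and at -0.56 without LTKO GFP replicate 1.

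Mitochondrial fatty acid oxidation moved the other way: 20 of 26 members rose and none fell, with a median change of 0.61. In all, 17 of the 20 were called in every fit that left out 1 array. Acot2, a mitochondrial acyl-CoA thioesterase, read 6.86, 7.19 and 7.02 against 9.83 and 10.21, 8-fold higher (limma adjusted p = 8.91e-09). Cpt2, the inner-membrane carnitine palmitoyltransferase, read 7.48, 7.56 and 7.51 against 8.58 and 8.75, a rise of 1.15. The rises of the core enzymes were smaller and tight: Hadha rose by 0.66, Acadm by 0.67, Etfdh by 0.68, the carnitine carrier Slc25a20 by 0.83 and Eci2 by 0.93. Cpt1a, the gate of mitochondrial entry, rose by 0.38, from 9.51, 9.58 and 9.57 to 9.93 and 9.94 (limma adjusted p = 0.00375). Bdh1, which interconverts the ketone bodies, rose by 0.69. Fgf21, the fasting hormone, read 3.6, 3.64 and 3.91 against 7.10 and 6.59, 8.73-fold higher (change 3.13, SE 0.35, limma adjusted p = 4.84e-05).

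**Figure D3:**
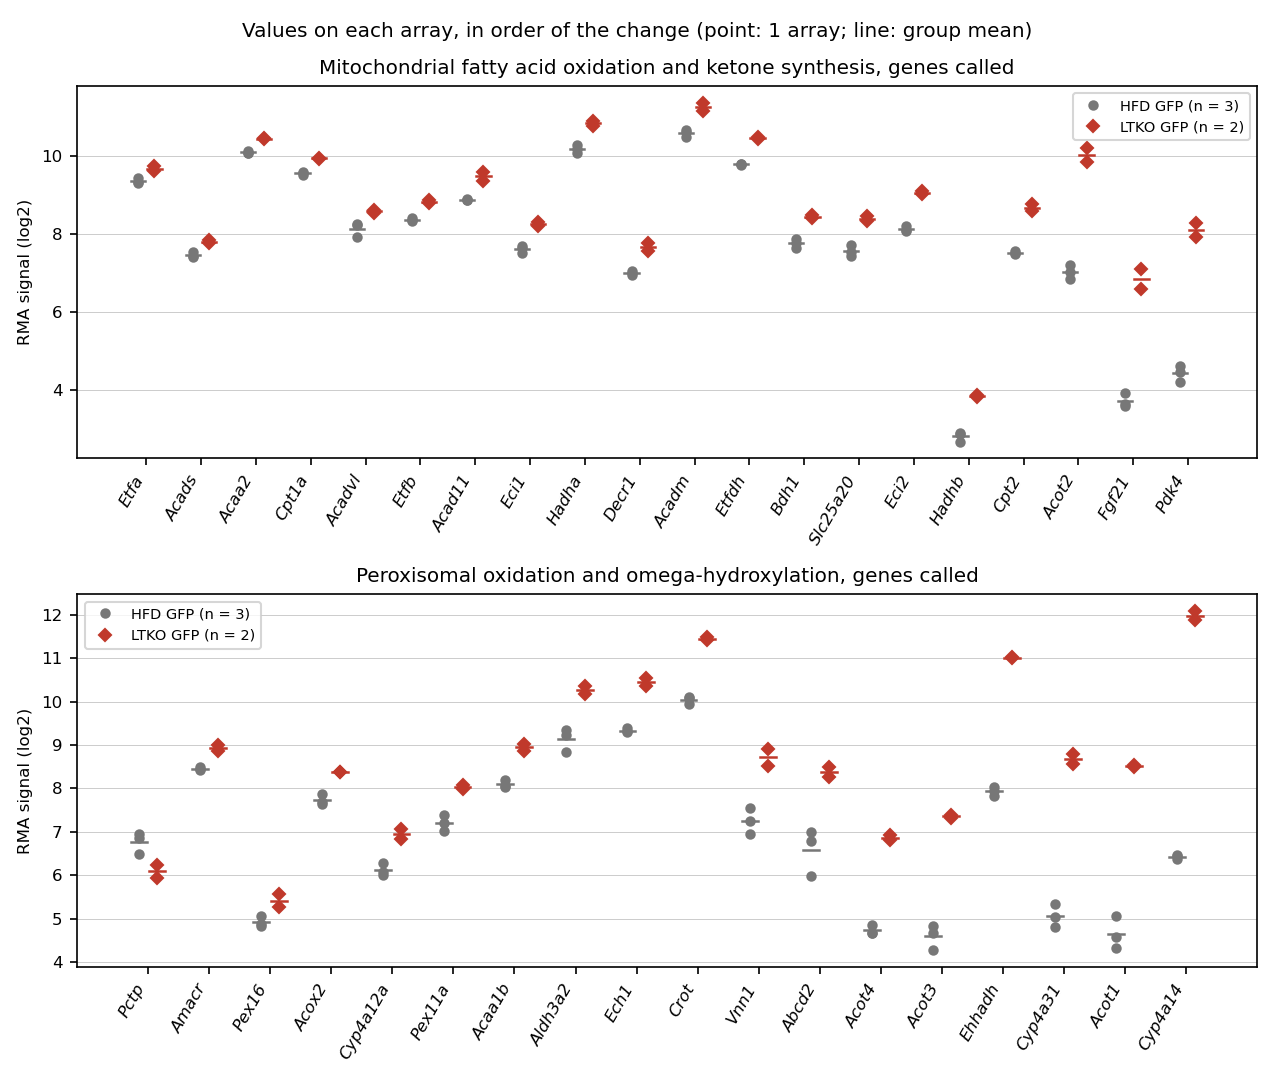
Log2 level in each GFP array for the called genes of mitochondrial and peroxisomal oxidation, with Fgf21, HFD and LTKO livers as separate points. Members not called are not drawn, so the gap between the groups follows in part from that choice. The LTKO mean lies above the HFD mean for each gene drawn except Pctp, by 0.38 for Cpt1a and by 5.54 for Cyp4a14. Pctp, the called peroxisomal member that fell, lies lower (change -0.68).

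Peroxisomal oxidation and omega-hydroxylation held the largest rise of all named genes. Of 27 members, 17 rose and 1 fell, with a median change of 0.83, and 16 of the 17 were called in every fit that left out 1 array. Cyp4a14, which hydroxylates the far end of fatty acids, read 6.45, 6.39 and 6.45 against 12.08 and 11.87, 46.6-fold higher (change 5.54, SE 0.12, limma adjusted p = 9.01e-12). Its relative Cyp4a31 rose by 3.62. Ehhadh, the peroxisomal bifunctional enzyme, read 7.83, 8.03 and 7.93 against 11 and 11.02, 8.46-fold higher. The thioesterases Acot1, Acot3 and Acot4 rose by 3.86, 2.76 and 2.13, the last by 1.24 with its clusters averaged. The cytosolic, peroxisomal and mitochondrial acyl-CoA thioesterases and the Cyp4a genes are near-copies, and an array probe can take up transcripts of a close relative, so values of single members are uncertain. Crot, which makes acylcarnitines for export from peroxisomes, rose by 1.40, the transporter Abcd2 by 1.79, Vnn1 by 1.47, Ech1 by 1.13, Aldh3a2 by 1.12 and the peroxisome division gene Pex11a by 0.83. Outside the lists, and chosen after their values were seen, Crat, carnitine acetyltransferase, rose by 2.55 (1.40 with its clusters averaged), the carnitine transporter Slc22a5 by 1.40, Hacl1 by 1.34 and Hsdl2 by 1.58. Slc16a1, a lactate and ketone transporter, also chosen in that way, read 7.0, 6.93 and 6.90 against 9.23 and 9.47, a rise of 2.41.

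Bile acid genes were mixed, with 12 of 30 higher and 6 lower. Cyp8b1, the 12α-hydroxylase that sets the share of cholic acid, read 8.20, 8.43 and 8.40 against 9.15 and 9.07, a rise of 0.76 (limma adjusted p = 7.79e-05). Cyp7a1, the rate-limiting enzyme of bile acid synthesis, read 10.62, 10.49 and 10.57 against 10.25 and 9.45 (change -0.71, adjusted p = 0.0147). It rested on LTKO GFP replicate 2: without that array the change was -0.31 (adjusted p = 0.177), without LTKO GFP replicate 1 it was -1.11, and without HFD GFP replicate 1 the adjusted p was 0.0511. Cyp39a1 and Hsd3b7, further enzymes of synthesis, rose by 0.97 and 0.75, and Akr1d1 fell by 0.82 on the log2 scale. Of the transporters, Slco1a4 rose by 1.44 and Abcb4 by 0.58, while Slco1a1 fell by 0.83 and Slc10a1, the main uptake carrier NTCP, by 0.43 on that scale. Abcc3, a basolateral exporter, was at 0.64 (adjusted p = 0.00846), with an adjusted p of 0.0639 without LTKO GFP replicate 2.

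Among 24 lipoprotein genes, 3 rose and 8 fell. Apoa4, an apolipoprotein of triglyceride-rich particles, read 9.99, 10.16 and 10.02 against 7.74 and 8.09, 4.4-fold lower (limma adjusted p = 5.85e-07). Saa4 fell by 1.37, the endothelial-type lipase Lipg by 0.87, the cholesterol exporter Abca1 by 0.54 and Apoa1 by 0.39 on the log2 scale. Angptl8, an inhibitor of lipoprotein lipase, rose from 5.58, 5.47 and 5.63 to 6.96 and 7.37, and Lcat, which esterifies plasma cholesterol, rose by 0.88.

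Secreted liver factors and their receptors included 7 of 33 that rose and 3 that fell. Lepr, the leptin receptor, read 4.82, 4.27 and 4.46 against 8.27 and 8.10, 12.7-fold higher (change 3.67, SE 0.23, limma adjusted p = 3.08e-07). The activin-type subunits Inhbc and Inhbe rose by 1.56 and 0.88, while Inhba was at -0.58 (adjusted p = 0.0792). Igfbp2 rose by 1.15 and Fetub by 0.51. The growth hormone receptor Ghr fell from 8.37, 8.48 and 8.44 to 7.62 and 7.54, and Lect2 fell by 0.53. Igf1 overlapped between the groups (-0.02, adjusted p = 0.948). Socs2, a feedback inhibitor induced by growth hormone, read 5.62, 5.49 and 5.62 against 7.14 and 5.03, so the 2 LTKO livers lay on either side of the HFD livers. In the TGF-β, activin and BMP list 3 of 35 rose and 4 fell (20%), against 13.1% of all genes called. That share lay below the 23.3% of genes with a group mean at or above the median gene. The receptors Tgfbr2 and Bmpr2 fell by 1.05 and 0.63 on the log2 scale, and Id3, a BMP target, rose by 1.24 (0.73 without LTKO GFP replicate 1). Hamp, which encodes hepcidin, was at -0.12 (adjusted p = 0.76).

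Many male-predominant liver genes were lower in these male livers. Of 25 such genes 14 fell and 2 rose (64%), with a median change of -0.83. Of 35 female-predominant genes 8 rose and none fell (22.9%). Over all genes 13.1% were called and 6.69% were higher. Among genes with a group mean at or above the median gene, 23.3% were called in either direction, near the share of the female-predominant list. Cyp2u1 read 6.94, 7.04 and 7.22 against 4.08 and 4.17, 7.69-fold lower (limma adjusted p = 8.71e-07). Serpina4-ps1 fell from 9.77, 9.55 and 9.60 to 5.94 and 5.60, Nudt7 by 2.08, C6 by 1.45, Keg1 by 1.45 and Gna14 by 1.35 on the log2 scale. Mup20, a major urinary protein used as a male scent signal, read 12.30, 12.30 and 12.22 against 11.28 and 9.70 (change -1.78, or -0.99 without LTKO GFP replicate 2). Selenbp2 read 10.48, 9.79 and 10.20 against 4.87 and 7.97 (change -3.73, limma adjusted p = 0.00463), and without LTKO GFP replicate 1 it was at -2.18 with an adjusted p of 0.0725. Cyp4a12a and Cspg5 were exceptions and rose by 0.83 and 0.97. Cspg5 had a limma adjusted p of 0.0435, and 0.0538 with robust moderation. Among female-predominant genes, Cyp3a44 rose by 1.48 and Cyp2a4 by 0.86, and Cyp4a14, Acot3, Abcd2, Cyp39a1 and Slco1a4 are on that list as well as on lists above. Mup genes and the Cyp2, Cyp3a and Cyp4a clusters are near-copies, so the value of a single member is uncertain.

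Drug-metabolising P450 genes and their regulators had 11 of 30 members higher and 6 lower. Cyp3a11, the main mouse CYP3A, read 8.67, 8.75 and 8.47 against 10.53 and 10.48, a rise of 1.88 (limma adjusted p = 1.04e-08). Cyp3a25 and Cyp3a59 rose by 2.56 and 2.47, and the nuclear receptor CAR, Nr1i3, by 1.31. Alas1, the entry enzyme of haem synthesis, fell from 9.98, 10.09 and 9.99 to 8.62 and 8.24, and the vitamin D 25-hydroxylase Cyp2r1 fell by 1.39 on the log2 scale. In the list of conjugating enzymes and targets of NRF2, the sensor of oxidative stress, 21 of 40 rose and 4 fell, with a median of 0.47. Gclc, the catalytic subunit of glutathione synthesis, read 8.86, 9.0 and 8.95 against 10.45 and 10.45, a rise of 1.51 (limma adjusted p = 3.36e-08). Ephx1 rose by 1.48, Ces2a by 1.51, Nqo1 by 1.34, Gstt2 by 1.14, Srxn1 by 0.80, Nfe2l2 itself by 0.60 and Gclm by 0.49. Sult1b1, a sulfotransferase, fell by 1.28.

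Of 26 genes for methionine, cysteine and taurine 9 rose and none fell. Csad, which makes the taurine precursor hypotaurine, read 6.35, 6.66 and 6.44 against 9.28 and 9.23, 6.81-fold higher (change 2.77, limma adjusted p = 6.23e-09). Mat1a, Cbs, Cth and Cdo1, enzymes on the route from methionine to cysteine sulfinate, rose by 0.77, 0.78, 0.57 and 0.70. Of 35 urea cycle and amino acid breakdown genes 8 rose and 7 fell. The urea cycle enzymes Otc, Ass1 and Asl fell by 0.59, 0.99 and 0.40 on the log2 scale. Oat rose by 0.82, Agxt by 1.00, Gldc by 1.06 and Bckdhb, of branched-chain ketoacid breakdown, by 1.04.

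Genes that mark the position of a hepatocyte in the lobule also differed. Of 24 pericentral genes 9 rose and 4 fell, and of 20 periportal genes 1 rose and 8 fell. Tbx3, a WNT target of pericentral cells, rose from 6.22, 5.68 and 5.74 to 6.89 and 7.18, and Cyp1a2 rose by 0.47. Rgn, on the pericentral list, fell by 0.64, and Glul, glutamine synthetase, was at -0.27 (adjusted p = 0.0149). It was at -0.25 (adjusted p = 0.0554) without HFD GFP replicate 3, at -0.23 (0.107) without LTKO GFP replicate 1, and at -0.59 (0.0029) with its clusters averaged. On the periportal side Cyp2f2 fell by 0.83, Ctsc by 1.03 and Ass1 by 0.99 on the log2 scale, and Etnppl, a phospholyase, rose by 1.2.

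The circadian clock list had the highest share of called genes: 5 of 18 rose and 11 fell, and 15 of the 16 were called in every fit that left out 1 array. The activators were higher. Arntl, which encodes BMAL1, read 3.6, 3.62 and 3.20 in HFD and 6.60 and 6.91 in LTKO, 9.7-fold higher (change 3.28, SE 0.18, limma adjusted p = 4.7e-08). Npas2 and Clock, its alternative partners, rose by 1.25 and 0.55. The repressor Cry1 rose by 0.86 and Nfil3, a repressor whose peak lies opposite that of Dbp, by 1.70. The other called repressors and the output genes were lower. Nr1d1, which encodes REV-ERBα, read 6.02, 6.10 and 6.37 against 4.49 and 4.50, and its partner Nr1d2 fell by 1.99 on the log2 scale. Dbp, the classic output factor, read 8.11, 8.14 and 8.08 against 5.54 and 4.52, 8.45-fold lower (limma adjusted p = 4.87e-07). Per1 fell by 2.09, Per3 by 1.75, Bhlhe40 by 2.24, Usp2 by 2.26, Ciart by 2.00, Tef by 1.40 and Cry2 by 0.75 on that scale, with Tef at -0.80 when its clusters were averaged. Chosen after their values were seen, the clock-driven genes Wee1 and Noct fell by 2.75 and 2.49. The E-box CACGTG, the letters that BMAL1 binds, stood in 5 of 17 clock gene promoters (29.4%), against 9.19% of all promoters. This was not particular to the clock list. CACGTG stood in 4 of 15 cholesterol synthesis promoters (26.7%), 6 of 26 of fatty acid synthesis (23.1%) and 4 of 22 FoxO1-responsive ones (18.2%). The labels give no hour of collection or length of fast for either group, so a difference in these cannot be told apart from genotype.

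**Figure D4:**
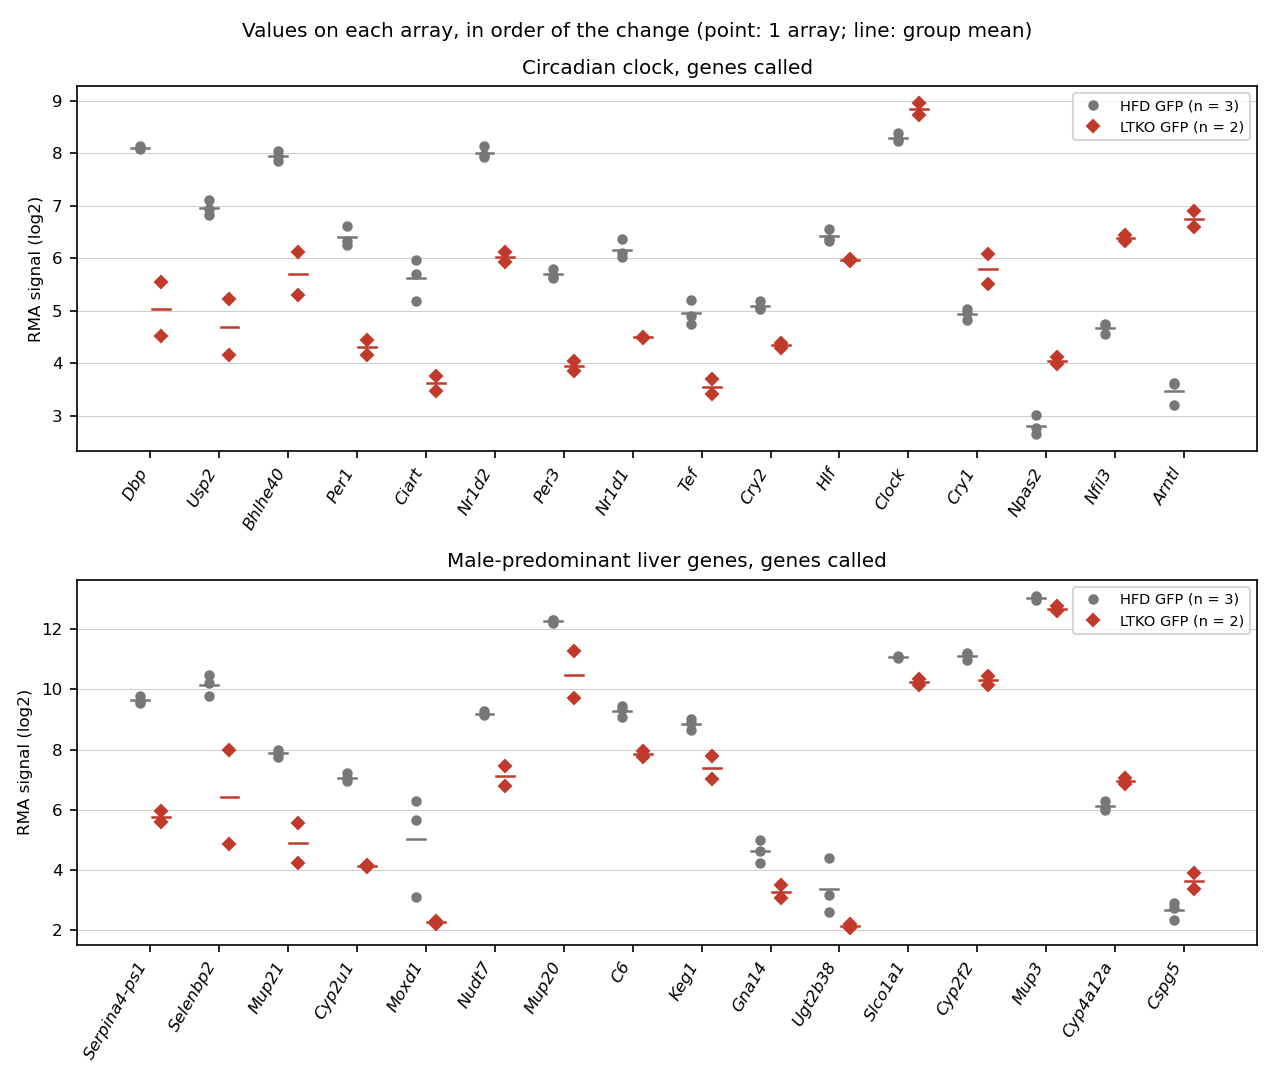
Log2 level in each GFP array for the called circadian clock genes and male-predominant liver genes, HFD and LTKO livers as separate points. Members not called are not drawn, so the gap between the groups follows in part from that choice. Arntl lies higher in both LTKO livers by 3.28 as a difference of means, and Dbp and Nr1d1 lie lower by 3.08 and 1.67 as falls.

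Plasma protein genes held the largest fall of all named genes. Serpina1d, an α1-antitrypsin paralogue, read 12.39, 12.35 and 12.30 in HFD and 5.75 and 5.80 in LTKO, 95.3-fold lower (change -6.57, SE 0.13, limma adjusted p = 2.81e-12). Its paralogue Serpina1e fell by 2.56, and Mug2, a murinoglobulin protease inhibitor, fell from 9.95, 9.97 and 10.21 to 6.02 and 5.57. These families are near-copies and the strain of neither group is given, so a difference in the gene copies or probe sequence cannot be told apart from a difference in transcript level. In all, 14 of 44 complement, coagulation and serpin genes fell and 4 rose, with Cfi at -1.24, C9 at -1.17, F11 at -1.18, Serpina11 at 1.42 and Mbl1 at 1.07. Of 29 acute phase genes 6 rose and 7 fell: the metallothioneins Mt2 and Mt1 rose by 1.83 and 1.01, Orm2 by 1.17 and Lbp by 1.14, while Steap4 fell by 1.76, Il1r1 by 1.19 and Crp by 0.66 on the log2 scale.

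Interferon-stimulated genes fell or were not called: 11 of 38 were lower and none higher, with a median of -0.52. Of the 11, 4 were called in every fit that left out 1 array, and the number lower ranged from 6 to 19 over the other settings. Ifih1, a sensor of double-stranded RNA, read 7.83, 7.77 and 7.71 against 5.88 and 6.16, 3.36-fold lower (limma adjusted p = 6.46e-06). Ifit1 fell by 1.88, Gbp7 by 1.90 (adjusted p = 0.061 with robust moderation) and Parp14 by 1.41 on the log2 scale. Bst2 was at -2.0, but at -1.04 with an adjusted p of 0.131 without LTKO GFP replicate 1. Gbp10 was at -3.11, and at -2.85 with an adjusted p of 0.0719 without LTKO GFP replicate 2. Of 22 antigen presentation genes 1 rose and 4 fell (22.7%), against 13.1% of all genes called. That share lay near the 23.3% of genes with a group mean at or above the median gene. The median change of this list was -0.14 with GFP. With FST288 it was 0.23, with 3 members higher and none lower. The difference of this list between the vectors was not tested. H2-T23 read 7.24, 6.98 and 6.89 against 5.14 and 4.94, a fall by 2.00, and H2-T10 rose by 1.17. MHC class I genes are near-copies that vary between strains, so these values are uncertain. Beside the interferon genes, the summed level of the Kupffer cell and macrophage markers was 9.80 to 10.23 in the HFD GFP arrays and 10.04 and 10.17 in the LTKO GFP arrays. Of the 20 markers, Mrc1 was called (-0.63, adjusted p = 0.0116), with an adjusted p of 0.0504 without LTKO GFP replicate 1 and 0.0789 without replicate 2. None of 16 T, B and NK cell or 11 neutrophil markers was called, and 15 of the 16 and 11 of the 11 lay under the median gene.

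Smaller groups are given for completeness. Of 41 stress response genes 7 rose and 4 fell (26.8%). Asns, asparagine synthetase, went from 3.35, 3.12 and 3.02 to 6.23 and 5.34. The factor Atf5 went from 6.75, 6.94 and 6.80 to 9.11 and 8.94. Trib3, an ATF4 target, was at 0.29 (adjusted p = 0.36), and Atf6 fell by 0.53 on the log2 scale. Of 44 p53 and cell cycle genes 6 rose and 2 fell, 18.2% against 13.1% of all genes. That share lay below the 23.3% of genes with a group mean at or above the median gene. Of 37 hepatocyte transcription factors and nuclear receptors 6 rose and 7 fell, with Hnf4a at 0.71, Zbtb20 at -1.0 and Thrb, the thyroid hormone receptor β, at -0.77. Of 39 oxidative phosphorylation genes 12 rose and 4 fell, with Cox4i1 at 0.88, Cox8a at 0.81 and Cox5a at 0.65. Of these, 6 of the 12 rises and none of the 4 falls were called in every fit that left out 1 array, and the number higher ranged from 6 to 12 and the number lower from 0 to 4 over the other settings. Of 37 cytosolic ribosomal proteins 16 rose and 1 fell, with Rpl15 at 0.99 and Rpsa at 1.01, and the number higher ranged from 9 to 21 over the other settings. Of 30 matrix genes 1 rose and 2 fell (10%), with Mmp14 at 1.23 and Col14a1 at -0.98. Lyve1, of sinusoidal endothelium, fell by 1.00, Ecm1, of stellate cells, rose by 0.61 and Car3, which hepatocytes also express, fell by 0.78. No acinar, islet, red blood cell or skeletal muscle marker was called in this comparison.

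Further genes stood out by size. Ctse, the protease cathepsin E, read 2.32, 2.81 and 2.77 against 7.47 and 7.07, its HFD values lying below the median gene at 3.12. Tubb2a, a β-tubulin, rose by 2.79 and Gadd45b, a stress-induced regulator, by 2.71. Mme, the peptidase neprilysin, fell from 7.75, 7.55 and 7.84 to 2.58 and 2.81, its LTKO values lying below the median gene. Upp2, uridine phosphorylase, fell by 3.83 on the log2 scale, Ddah1, which degrades methylated arginines, by 3.57, Adgrf1 by 3.52, Adh6-ps1 by 3.21 and Hnmt, histamine methyltransferase, by 3.07. Rgs16, a regulator of G-protein signalling, read 8.54, 8.59 and 8.41 against 3.87 and 5.92.

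The same genotypes with the FST288 virus shared no array with the comparison above and gave a like pattern for the largest changes. Both comparisons came from 1 fit to all 10 arrays and used the same estimate of each gene's spread. A gene with a small spread was therefore favoured in both, and the counts of joint calls below are not from independent tests. There 2293 genes (10.3%) were called, with 1120 higher (5.05%) and 1173 lower (5.29%). Without HFD FST288 replicates 2 and 3, 939 (4.23%) were called, 419 higher (1.89%) and 520 lower (2.34%). All 15 genes with the largest rise with GFP were called higher with FST288, with and without those arrays. Of the 15 with the largest fall, 14 were called lower, and 13 without those arrays, Gbp10 being at -1.27 (adjusted p = 0.339). Of the 2902 genes called with GFP, 2575 (88.7%) changed in the same direction with FST288, against 55.2% of the genes not called. Without the 2 acinar-marked arrays these were 90.1% and 58.3%. A total of 1414 genes were called in both in the same direction, 48.7% of the GFP calls and 61.7% of the FST288 calls, and 8 in opposite directions. Without the acinar-marked arrays 762 were called in both in the same direction, 26.3% of the GFP calls and 81.2% of the FST288 calls, and 2 in opposite directions.

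List by list, fatty acid synthesis had 17 of 29 members lower and 2 higher with FST288 (14 and 1 without the acinar-marked arrays), and cholesterol synthesis 11 of 19 lower (9). Mitochondrial oxidation had 20 of 26 higher (11) and peroxisomal oxidation 16 of 27 higher and 4 lower (13 and none). The clock list had 5 higher and 10 lower (4 and 10), and male-predominant genes had 18 of 25 lower (12). Oxidative phosphorylation had 1 member higher and 6 lower with FST288 (none and 1 without those arrays), and the interferon list 6 lower (1). The difference of these lists between the vectors was not tested. Kupffer cell and macrophage markers were higher for 11 of 20 with FST288 and for none without HFD FST288 replicates 2 and 3. The median change of these markers was 0.82 with those arrays and 0.86 without them, and the part of the LTKO FST288 replicate 2 array in this was not tested. The target genes moved as with GFP, with Irs1 at -1.63, Irs2 at -1.41, Foxo1 at -2.09 and Foxo3 at -1.06 with FST288, and at -1.73, -1.47, -2.07 and -1.37 without the acinar-marked arrays. Igfbp1 rose by 1.89 with FST288 (adjusted p = 0.000318), and the difference from its GFP change did not pass the test (GFP minus FST288 -1.51, adjusted p = 0.13). Without those arrays Igfbp1 was at 2.10 (0.00959), and the difference at -1.72 (0.537). Txnip was at 0.29 (adjusted p = 0.398), G6pc at -0.33, Pck1 at -0.06 and Cyp7a1 at 0.38, none of them called. They were at 0.36, -0.42, -0.15 and 0.19 without those arrays. For none of these genes did the difference from the GFP change pass the test, so they are not shown to be particular to GFP. The difference between the vectors passed the test for 48 genes (0.216%), and for 1 without HFD FST288 replicates 2 and 3.

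**Figure D5:**
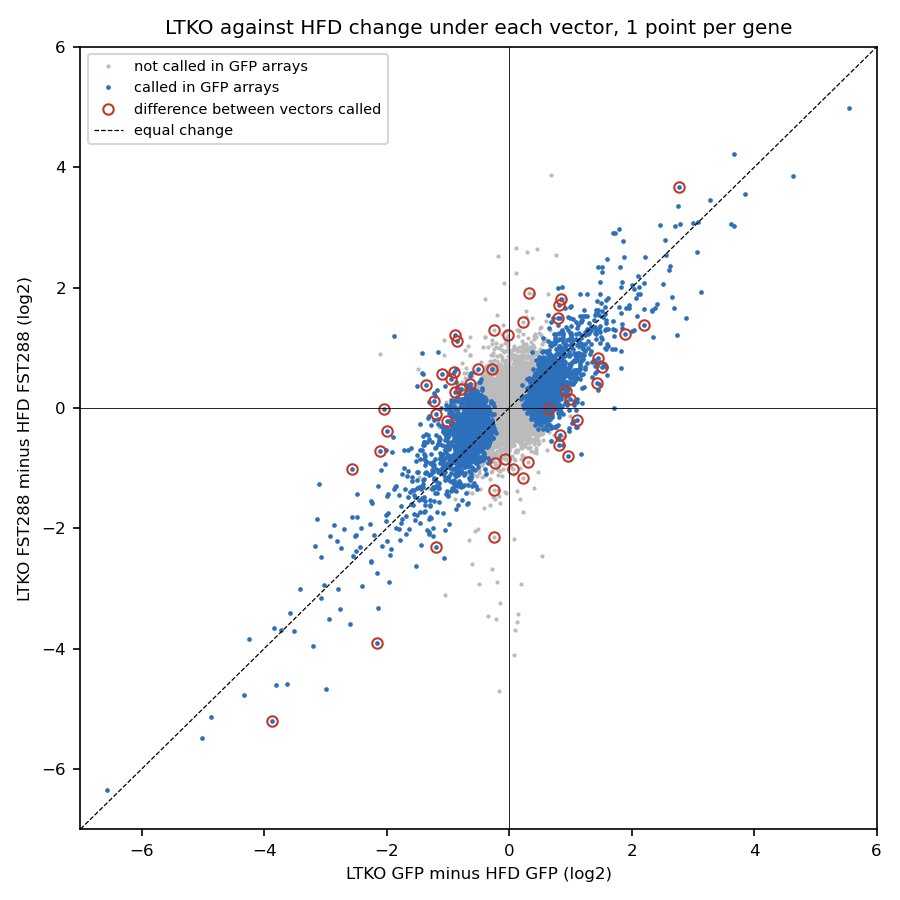
Change of each of the 22180 genes with GFP (horizontal, log2 LTKO minus HFD) against its change with FST288 (vertical). A red ring marks genes where the difference between vectors was called. Serpina1d lies at -6.57 and -6.35 and Cyp4a14 at 5.54 and 4.98. Of the genes called with GFP, 88.7% changed in the same direction with FST288, against 55.2% of those not called. The called genes had a median size of 0.65 with GFP and a median of 0.42 in that direction with FST288.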

How the data were processed

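Affymetrix whole-transcript arrays were hybridised with biotinylated DNA made from total liver RNA. Per the submitters' processing notes, the authors made the deposited log2 values with RMA in Affymetrix Expression Console; versions and genome build are not given in the sources used here. RMA equalises the arrays' distributions, so a shift of most genes cannot be seen. Arrays give no depth; their number limits the precision.

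Of 41345 transcript clusters, 23521 had 1 symbol, 1814 several and 16010 none; the last 2 kinds were left out. For the 1082 genes with several clusters the brightest was used. limma 3.58.1 in R 4.3.3 fitted 1 mean per group to all 10 arrays (eBayes with an intensity trend, two-sided, Benjamini-Hochberg over 22180 genes, threshold 0.05); the procedure was tested on simulated data. A fold is 2 to the log2 change, and errors are SE of the fit.

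Named were the 15 largest called rises and falls (without unnamed loci, small RNA and receptor genes), called members of fixed lists, and a fixed set of liver genes; 1024 of 1156 list genes matched by symbol. Members and lists were chosen with earlier results of these data known. Gdf15 was not analysed here. Other settings of the fit, the scaling, the gene set and the arrays were tried for each comparison. Same-numbered samples did not deviate together (13 pairs, r -0.07 to 0.05), so replicate numbers were not used as pairs.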

Additional observations from a re-analysis of the deposited data

Results flagged for a closer look

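For 14 genes described here the LTKO against HFD change differed between the GFP and FST288 arrays by the test of the difference itself (limma, adjusted p over 22180 genes). Each value is the GFP change minus the FST288 change on the log2 scale. None of the 14 passed this test without HFD FST288 replicates 2 and 3, the arrays with acinar pancreas markers, where the smallest of their adjusted p was 0.0659 and fewer arrays entered the fit. The differences kept their signs: they were -1.35 for Msmo1, -1.24 for Sqle, -0.74 for Hmgcs1, -0.92 for Acaa1b, -0.96 for Csad, -0.84 for Oat, -0.79 for Itih3, 0.78 for Retsat and 0.60 for Eci2. They were 1.66 for Serpina4-ps1, 1.13 for Il1r1, 1.40 for Cyp4a12a, -1.66 for H2-Q4 and -1.60 for H2-T23.

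With all 10 arrays, 3 of the 19 cholesterol synthesis genes fell further with GFP: the difference was -1.55 for Msmo1 (adjusted p = 0.00654), -1.41 for Sqle (0.0413) and -0.80 for Hmgcs1 (0.0227). Genes that rose further with FST288 were Acaa1b at -0.96 (0.0104), Csad at -0.90 (0.0495), Oat at -0.89 (0.00924) and Itih3 at -0.70 (0.0351). Genes that rose further with GFP were Retsat, a retinol saturase, at 0.82 (0.00924) and Eci2 at 0.65 (0.0473). Serpina4-ps1 at 1.32 (0.0495) and Il1r1 at 1.12 (0.0441) fell further with FST288. Cyp4a12a differed by 1.27 (0.0112), with a change of 0.83 with GFP and -0.45 with FST288. H2-Q4 differed by -1.66 (0.0347), with -1.10 and 0.56, and H2-T23 by -1.62 (0.0495). With its clusters averaged, the GFP change of H2-Q4 was -0.49 (adjusted p = 0.0808).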

How the results depend on the processing

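The number of genes called with GFP was 2902; it was 1665 at an adjusted p under 0.01, 546 with a change of at least 1, 2475 with the replicate block and 1870 to 3037 when 1 array was left out. With FST288 it was 2293, 1357 at 0.01, 552 with a change of at least 1, 939 without both acinar-marked arrays and 1533 to 2390 when 1 array was left out. The difference between vectors had 48 genes, 3 with no intensity trend, 6 over all transcript clusters, 8 at 0.01, 1 without both acinar-marked arrays and 11 to 266 when 1 array was left out; the cause was not tested. Of 434 called genes followed, 290 were called in every setting fitted and 295 in every fit that left out 1 array. Changes near 0 turned sign: Mttp was at 0.023 with the replicate block, and Mogat1 at -0.0015 after quantile normalization and -0.021 with centred arrays. With 1 array left out, Igfbp1 ranged from -0.26 to 1.02, Igf1 from -0.21 to 0.18, Socs2 from -0.55 to 1.56, Hamp from -0.36 to 0.12, Mttp from -0.14 to 0.073, Cidec from -0.023 to 0.15 and Mogat1 from -0.077 to 0.092. With 2 and 3 arrays, an exact permutation test of a single gene cannot go below 0.1.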

Other observations

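Small nucleolar RNA genes, which guide the chemical modification of ribosomal RNA, were chosen after their values were seen. Of 73 measured, 51 were higher in LTKO GFP and none lower (69.9%, against 6.69% of all genes), with a median change of 1.04. Their median level was 6.12, 6.61 and 6.20 in the HFD GFP arrays and 7.89 and 7.41 in the LTKO GFP arrays. The groups did not overlap in this median, and neither did they for 40.3% of all single genes. With FST288, 50 were higher, and 32 without the acinar-marked arrays, with medians of 0.77 and 0.88. Of 20 genes that carry such RNAs in their introns, 10 were higher, among them Rabggtb at 2.37, Snhg6 at 1.85, Snhg17 at 1.58 and Zfas1 at 1.39.

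Nnt, the mitochondrial transhydrogenase that some laboratory strains lack, read 6.07, 6.01 and 6.01 in HFD GFP and 8.11 and 7.87 in LTKO GFP (change 1.96, limma adjusted p = 3.67e-08), and rose by 1.67 with FST288 (1.73 without the acinar-marked arrays). It was chosen after its values were seen, and the strain of neither group is given.

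Among other genes chosen after their values were seen, Retsat read 8.34, 8.30 and 8.42 against 10.58 and 10.54, and Clpx, a mitochondrial unfoldase, 7.22, 7.29 and 7.29 against 9.32 and 9.42. The vasopressin receptor Avpr1a rose by 2.11. Nox4, an NADPH oxidase, fell by 2.40 on the log2 scale and the water channel Aqp8 by 2.42. Herc6 and Eif2ak2, interferon-stimulated genes outside the fixed list, fell by 1.91 and 1.14 on that scale. Of the 50 genes nearest to each target, 6 were called around Irs1 (12%), 9 around Irs2 (18%) and 3 around Foxo1 (6%), against 13.1% of all genes.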
